A study of Mus musculus with 6 samples.

Results

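Astrocyte genes were followed in total RNA of mouse hippocampus, measured on 1 one-colour array for each of 3 wild-type and 3 inhibitor-1 knockout samples. The members are 35 genes taken as a marker list, and every probe set that the platform annotation gives to exactly 1 of them was used, which made 76 of 45101 probe sets; the 35 genes are among 18194 that the annotation names. All samples share the tissue and the array type, and the genotype is the difference the labels name. Sex, age, strain, the targeting construct and the number of animals behind an array are not stated in the labels, so a p-value here speaks only for the variation among these 6 arrays, part or all of which could be technical. The comparison asks whether the astrocyte transcripts of the hippocampus differ when inhibitor-1 is missing, the protein that restrains protein phosphatase 1 once protein kinase A has phosphorylated it.

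Astrocytes take up glutamate and potassium released by active neurons, wrap blood vessels with water channel-rich endfeet, share ions and metabolites through gap junctions, and supply neurons with lipid-carrying particles. In the hippocampus, the radial stem cells of the dentate gyrus share part of this gene set, such as Gfap, Vim, Sox9, Hes5 and Fabp7. After injury or inflammation astrocytes become reactive, and a rise of Gfap is a well known sign of it.

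The 250 bases before the RefSeq transcription start (GRCm38.p6) are shown for Gfap, the marker that defines the cells, and for Fabp7, Agt and Hes5, the members with the largest changes of either sign. Capitals mark TGGGAA, the core letters bound by the Notch effector RBPJ, or its reverse complement in the first 3, and TTCNNNGAA, the letters of a STAT site, in Agt. The windows are chr11:102897201-102897450, minus strand, for Gfap, chr10:57784673-57784922, plus strand, for Fabp7, chr4:154960673-154960922, plus strand, for Hes5 and chr8:124569707-124569956, minus strand, for Agt.
Gfap: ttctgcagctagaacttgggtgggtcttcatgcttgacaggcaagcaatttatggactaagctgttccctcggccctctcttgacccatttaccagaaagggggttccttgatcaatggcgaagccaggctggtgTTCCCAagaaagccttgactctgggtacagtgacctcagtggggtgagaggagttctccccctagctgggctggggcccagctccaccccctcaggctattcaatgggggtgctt
Fabp7: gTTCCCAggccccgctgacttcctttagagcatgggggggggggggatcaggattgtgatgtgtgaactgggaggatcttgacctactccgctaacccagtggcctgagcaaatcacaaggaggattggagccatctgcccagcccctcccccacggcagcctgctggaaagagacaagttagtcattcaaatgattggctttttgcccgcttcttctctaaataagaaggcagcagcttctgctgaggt
Hes5: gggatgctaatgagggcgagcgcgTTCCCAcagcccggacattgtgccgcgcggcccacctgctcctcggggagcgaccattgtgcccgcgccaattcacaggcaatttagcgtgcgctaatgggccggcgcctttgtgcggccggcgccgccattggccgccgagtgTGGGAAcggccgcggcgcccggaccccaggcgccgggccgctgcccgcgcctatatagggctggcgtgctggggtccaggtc
Agt: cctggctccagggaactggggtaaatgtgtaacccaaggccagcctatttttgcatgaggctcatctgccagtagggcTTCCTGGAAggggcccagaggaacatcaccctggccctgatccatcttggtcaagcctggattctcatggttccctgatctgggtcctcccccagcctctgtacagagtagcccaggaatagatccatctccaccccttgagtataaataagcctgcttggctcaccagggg
On either strand, TGGGAA was found in 12 of the 37 windows of the 30 members that matched the promoter table, and in 21.6% of all 32851 windows. Hes5, a textbook Notch target, held 2 matches that do not overlap each other. TTCNNNGAA was found in 4 of the 37 member windows and in 7.02% of all windows. These are letter matches and were not read as binding.

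Values are log2(intensity + 16) throughout, called log2 level, and a change is the knockout mean minus the wild-type mean of that level. Ppp1r1a, which encodes inhibitor-1, lay at intensities of 8370 to 10345 on the wild-type arrays and of 249 to 347 on the knockout arrays, so the arrays carry the genotypes of their labels. Replicate 1 had the lowest median intensity in both groups (574 in wild type and 542 in knockout, against 621 to 666 on the other 4 arrays). In mean correlation with its own group, knockout replicate 1 was the lowest array (0.963), but wild type replicate 1 (0.973) lay between the other wild-type arrays. Each knockout array correlated slightly more with the wild-type arrays than with its own group. The defining markers were bright on all arrays: the brightest probe set of Gfap lay at or above the 96.4 percentile of each array, and that of Aqp4 at or above the 92.9 percentile. Of the 76 member probe sets, 72 passed the filter on dim values and all 35 genes kept at least 1. The other 4, each a further probe set of Slc4a4, Aldh1l1, Slc6a11 and Sox9, stayed between the 1.56 and 34.5 percentile. Each gene is given below by its brightest tested probe set unless another is named.

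None of the 72 astrocyte probe sets passed an adjusted p of 0.05 in limma (lowest adjusted p = 0.988), where 0.0111% of all 26999 tested probe sets passed, all of them lower in knockout. At an unadjusted p under 0.05 there were 4 member probe sets, 2 higher and 2 lower, or 5.56% against 4.38% of all tested probe sets. The higher ones were 1454849_x_at of Clu and 1423396_at of Agt. The lower ones were 1440142_s_at of Gfap (limma unadjusted p = 0.00582, the lowest of the 4) and 1429023_at of Hepacam. Neither of the lower ones is the brightest probe set of its gene. By gene, 18 of 35 had a change above 0 and 17 below 0. The median change was 0.02, against 0.0003 over all 12493 genes, and the members ran from -0.47 for Fabp7 to 0.34 for Agt. Without replicate 1 of both groups the median was -0.01, with 17 genes above 0. In RNA of whole tissue, fewer astrocytes and less RNA per astrocyte cannot be told apart.

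**Figure D1:**
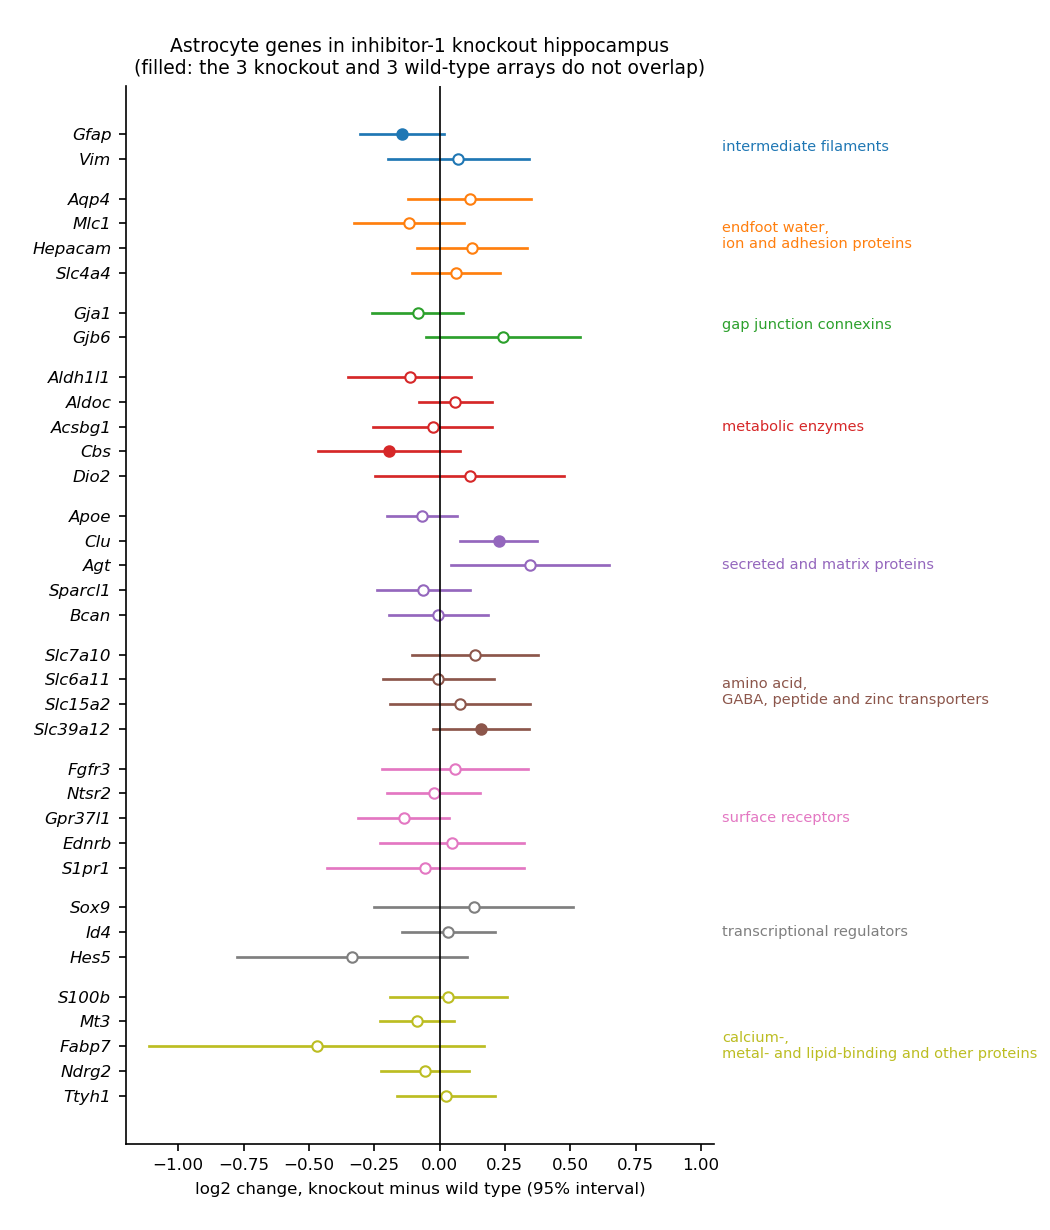
Change of each of the 35 astrocyte genes (knockout minus wild type, log2 scale) with its 95% interval from limma, 3 arrays against 3, grouped by role; filled points mark genes whose groups do not overlap. The points lie on both sides of 0, from -0.47 (Fabp7) to 0.34 (Agt), and the interval of Fabp7 is the widest.

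The intervals show what size of change the arrays could still hold. For 32 of the 35 genes (91.4%) the 95% interval lay within a 1.5-fold change in either direction, against 67.2% of all genes. The members were bright, and of the 9000 brightest probe sets 96.7% met this, so the members' share was not above that of bright probe sets. The exceptions were Agt, whose interval ran from 0.04 to 0.65, Hes5 (-0.77 to 0.10) and Fabp7 (-1.11 to 0.17). Within a 2-fold change lay 34 of 35, all but Fabp7. By probe set, 62 of 72 (86.1%) lay within a 1.5-fold change, against 54.8% of all tested probe sets. Gfap at 1440142_s_at was among those that did not, with an interval of -0.64 to -0.14. These intervals are not adjusted for the number of genes.

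The groups did not overlap for 9 member probe sets of 6 genes, 3 higher and 6 lower in knockout. That is 12.5% of the 72, against a background of 9.89% of all tested probe sets. By gene it was 4 of 35, namely Gfap, Cbs, Clu and Slc39a12, or 11.4% against 10.5% of all genes. With replicate 1 of both groups left out, the changes were -0.11 for Gfap, -0.15 for Cbs, 0.17 for Clu and 0.15 for Slc39a12.

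Gfap, the intermediate filament protein of astrocytes, had log2 levels of 14.60, 14.43 and 14.44 in wild type and 14.40, 14.32 and 14.33 in knockout at its brightest probe set, 1426508_at. Every knockout array was below every wild-type array, by as little as 0.04 between the nearest pair. The change was -0.14 (SE 0.07, limma adjusted p = 0.988). It was -0.09 without wild type replicate 1, and -0.08 in a fit that also held the mean level of 11 choroid plexus genes (the choroid plexus covariate). At 1440142_s_at the levels were 12.13, 12.09 and 12.23 in wild type and 11.64, 11.74 and 11.92 in knockout, again without overlap, with a change of -0.39 (SE 0.11). At 1426509_s_at they were 13.80, 13.73 and 13.55 in wild type and 13.55, 13.65 and 13.39 in knockout, and the groups overlapped. All 3 probe sets of Gfap thus had a change below 0, and none passed in limma. Vim, the other filament gene, had a change of 0.07 (SE 0.12), and its 3 probe sets were all above 0 (0.02 to 0.19).

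Among endfoot proteins, the water channel Aqp4 had log2 levels of 13.50, 13.72 and 13.84 in wild type and 13.61, 13.88 and 13.91 in knockout, with overlapping groups and a change of 0.11 (SE 0.11, limma adjusted p = 0.988). Leaving out wild type replicate 1 gave 0.02, leaving out knockout replicate 1 gave 0.21, and with the choroid plexus covariate it was -0.03. Its other probe sets had changes of 0.08 and 0.18. Hepacam, an adhesion protein that partners with Mlc1, gave opposite signs at its probe sets. At the brighter, 1434727_at, the levels were 12.66, 12.52 and 12.46 in wild type and 12.68, 12.58 and 12.75 in knockout, a change of 0.12 (SE 0.10) with overlap. At 1429023_at they were 12.24, 12.24 and 12.14 in wild type and 12.05, 11.94 and 11.85 in knockout, a change of -0.26 (SE 0.10) without overlap. The array thus gives no direction for Hepacam. Mlc1, a membrane protein of endfeet and the 1 member on chromosome 15, which carries Ppp1r1a, had a change of -0.12 (SE 0.10), and the sodium bicarbonate cotransporter Slc4a4 had one of 0.06 (SE 0.08), with all 4 probe sets above 0.

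The astrocyte connexins gave small values of either sign. Gjb6 had log2 levels of 13.59, 13.35 and 12.94 in wild type and 13.60, 13.54 and 13.47 in knockout. Wild type replicate 3 was the low array, the groups overlapped, and the change of 0.24 (SE 0.13) was 0.07 without that array, 0.39 without wild type replicate 1 and 0.40 with the choroid plexus covariate. Gja1 had 6 tested probe sets, 3 above and 3 below 0, and changes from -0.08 to 0.10.

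Of the metabolic enzymes, Cbs, which makes cystathionine from homocysteine, had log2 levels of 11.66, 11.63 and 11.60 in wild type and 11.37, 11.59 and 11.34 in knockout. The groups did not overlap, though knockout replicate 2 lay close to wild type, and the change was -0.19 (SE 0.12, limma adjusted p = 0.988). Its other probe set, 1425623_a_at, had a change of -0.23 (SE 0.15), also without overlap. The folate enzyme Aldh1l1 (-0.11), the brain aldolase Aldoc (0.06), the acyl-CoA synthetase Acsbg1 (-0.03) and Dio2, which activates thyroid hormone (0.12), had overlapping groups.

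By gene, 2 of 35 had an unadjusted p under 0.05 (5.71%, against 4.75% of all genes), and both encode secreted proteins, Clu and Agt. Clu, the lipid-carrying chaperone clusterin, had log2 levels of 16.66, 16.71 and 16.65 in wild type and 17.00, 16.79 and 16.91 in knockout at 1454849_x_at. All knockout arrays were above all wild-type arrays, and the change was 0.23 (SE 0.07, limma adjusted p = 0.988). The other 3 probe sets of Clu were above 0 too but smaller, at 0.04 to 0.07. Probe sets with the suffix _x_at hold probes that can also bind other transcripts, as the array's naming has it. The brightest probe sets of Gja1 (1437992_x_at) and Bcan (1441899_x_at) carry it as well. Of the Clu probe sets, the smaller 1437458_x_at (0.04) and 1437689_x_at (0.07) share this suffix with 1454849_x_at. The cause of the spread among Clu probe sets was not tested. Agt, the precursor of angiotensin, which brain tissue makes mainly in astrocytes, had levels of 11.81, 11.75 and 11.65 in wild type and 12.14, 11.80 and 12.31 in knockout. Knockout replicate 2 fell among the wild-type arrays, so the groups overlapped, and the change was 0.34 (SE 0.14, limma adjusted p = 0.988). It was 0.49 without that array and 0.23 without knockout replicate 3.

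The lipid carrier Apoe had a change of -0.07 (SE 0.06) and the lowest spread within groups of all members, and the synapse-promoting matrix protein Sparcl1 had one of -0.06 (SE 0.08). Bcan, the perineuronal matrix protein brevican, had a change of -0.005 at its brightest probe set and of -0.18 (SE 0.08) at 1416718_at. There the levels were 13.39, 13.27 and 13.45 in wild type and 13.11, 13.26 and 13.19 in knockout, and the nearest arrays of the 2 groups were 0.005 apart.

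**Figure D2:**
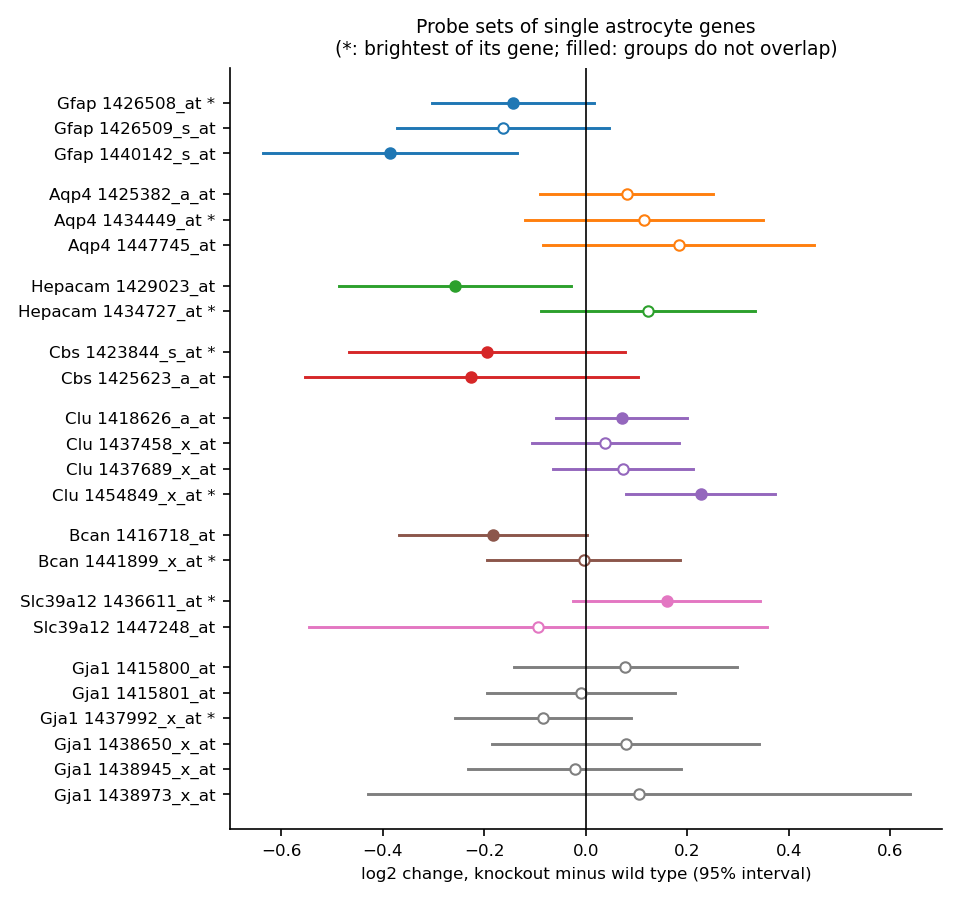
Change and 95% interval (log2 scale, knockout minus wild type, limma, 3 arrays against 3) at every tested probe set of 8 astrocyte genes; a star marks the brightest of a gene and filled points mark groups without overlap. The 3 Gfap points lie below 0 and the 3 Aqp4 points above it, while Hepacam has 1 on each side (-0.26 and 0.12).

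Among transporters, Slc39a12, a zinc transporter, had log2 levels of 12.80, 12.88 and 12.89 in wild type and 12.97, 13.09 and 12.98 in knockout. The groups did not overlap and the change was 0.16 (SE 0.08, limma adjusted p = 0.988). Its much dimmer second probe set, 1447248_at, had levels of 10.07, 9.99 and 9.95 in wild type and 9.96, 9.96 and 9.81 in knockout, a change of -0.09 (SE 0.21) with overlap. The neutral amino acid transporter Slc7a10 (0.14), the peptide transporter Slc15a2 (0.08) and the GABA transporter Slc6a11 (-0.01) had overlapping groups.

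The 5 surface receptors had changes of -0.14 to 0.06, and the groups overlapped for each. Gpr37l1, an orphan receptor of astrocytes, had the lowest p of them, with log2 levels of 14.49, 14.37 and 14.42 in wild type and 14.16, 14.31 and 14.40 in knockout. Its change of -0.14 (SE 0.08) was -0.07 without knockout replicate 1, the low array, and -0.04 without replicate 1 of both groups. The fibroblast growth factor receptor Fgfr3 (0.06), the endothelin receptor Ednrb (0.05), the neurotensin receptor Ntsr2 (-0.02) and the sphingosine phosphate receptor S1pr1 (-0.05), which endothelium also expresses, lay nearer to 0.

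Among the regulators, Hes5, a repressor induced by Notch, had log2 levels of 10.40, 10.54 and 10.52 in wild type and 10.06, 9.94 and 10.45 in knockout. Knockout replicates 1 and 2 were below all wild-type arrays and replicate 3 was among them, with a change of -0.33 (SE 0.20, limma adjusted p = 0.988). The dimmer Hes5 probe set, 1456010_x_at, had a change of 0.22 (SE 0.31). Sox9, which directs glial fate, gave 0.13 (SE 0.17) and -0.27 (SE 0.19) at its 2 tested probe sets, and Id4, an inhibitor of differentiation, 0.03 (SE 0.08).

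Fabp7, the brain lipid-binding protein of radial glia and young astrocytes, varied most among the members. Its log2 levels were 12.47, 13.61 and 13.31 in wild type and 12.08, 13.20 and 12.69 in knockout. Replicate 1 was the lowest array of each group, and the groups overlapped. The change was -0.47 (SE 0.29, limma adjusted p = 0.988). Single arrays moved it: it was -0.80 when wild type replicate 1 was left out, -0.23 for wild type replicate 2, -0.18 for knockout replicate 1 and -0.74 for knockout replicate 2. With replicate 1 of both groups left out it was -0.52. With the choroid plexus covariate it was -0.97 (limma adjusted p = 0.0614), still short of the threshold. The SD of Fabp7 within groups was 0.58, followed by 0.31 for S1pr1 and 0.29 for Dio2, while the median over the 35 genes was 0.12 and the lowest 0.05 (Apoe). The median over all tested probe sets was 0.20, and over the 9000 brightest of them 0.11.

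For the other binding and membrane proteins the sign depended on the probe set in S100b and Ttyh1. The calcium-binding protein S100b had a change of 0.03 (SE 0.10) at its brightest probe set and of -0.27 (SE 0.12) at the other. For the neuronal and glial metallothionein Mt3 the change was -0.09 (SE 0.06), for Ndrg2 -0.05 (SE 0.08) and for the membrane protein Ttyh1 0.02 (SE 0.09) at its brightest probe set and -0.17 to -0.06 at its other 3. For the 20 members with more than 1 tested probe set, the probe sets had 1 sign in 10 and mixed signs in 10.

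**Figure D3:**
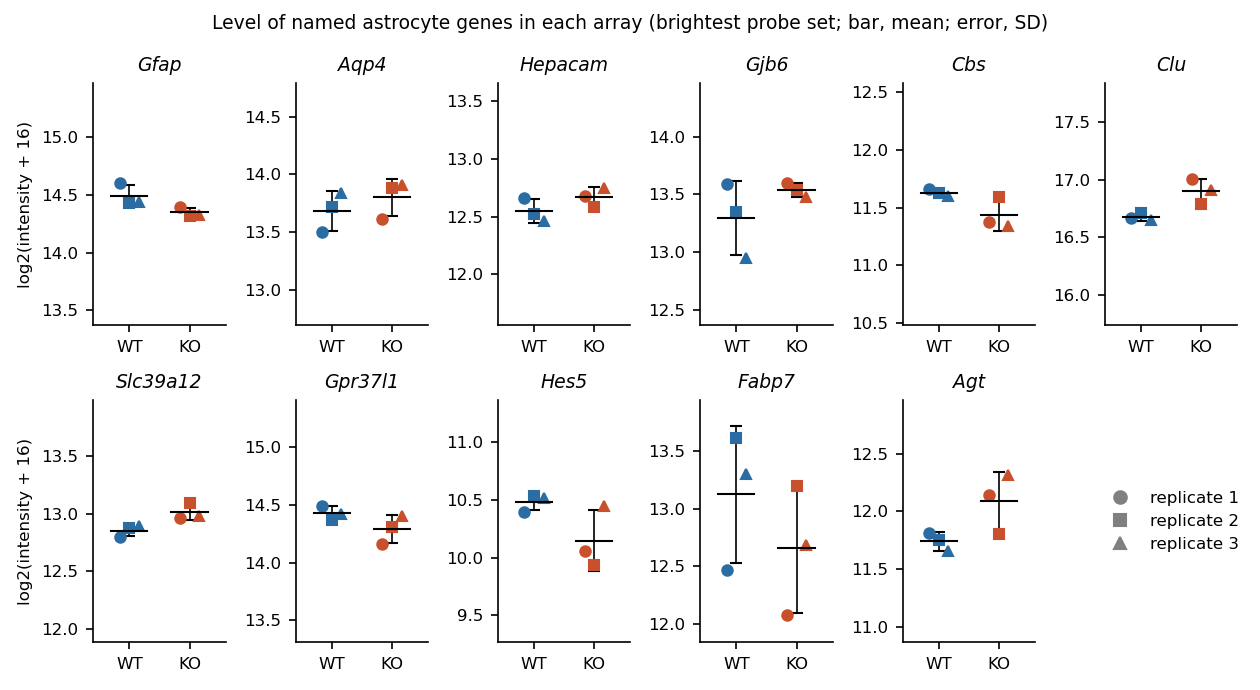
Log2 level of 11 astrocyte genes in each array at the brightest probe set, with the mean and SD of the 3 wild-type (WT, blue) and 3 knockout (KO, orange) arrays; all panels span the same height. Gfap and Cbs are lower and Clu and Slc39a12 higher in every knockout array, and Fabp7 spreads from 12.08 to 13.61 with replicate 1 lowest in both groups.

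Averaged over the list, the astrocyte signal was nearly even over the arrays. As the mean over the 35 genes, each relative to its mean over all 6 arrays, the level was 0.03, -0.01 and -0.02 in wild type and 0.03, -0.02 and -0.01 in knockout on the log2 scale. The groups overlapped and the means differed by 0.002. The same level of 11 choroid plexus genes was -1.04, 0.08 and 0.15 in wild type and -0.28, 0.61 and 0.48 in knockout, and that of 11 meningeal genes -0.33, -0.03 and -0.25 in wild type and -0.18, 0.49 and 0.31 in knockout. The low arrays of Fabp7 were also the lowest of their group in the choroid plexus level, and the change of Fabp7 with that level as a covariate is the one given above. These arrays also had the lowest median intensities, and the source of the Fabp7 spread was not tested. For Clu, which choroid plexus and ependyma also express, the change at its brightest probe set was 0.26 with the same covariate, against 0.23 without it. The choroid plexus level was itself 0.54 higher in knockout, so that fit does not fully separate it from genotype. The part of either tissue in the Clu signal was not tested. The level of 12 neuronal genes ran from -0.10 to 0.08, of 10 microglial genes from -0.08 to 0.12, and of 10 endothelial and mural genes from -0.21 to 0.25. It ran from -0.09 to 0.13 for 10 oligodendrocyte genes, from -0.15 to 0.13 for 6 genes of their precursors and from -0.30 to 0.28 for 7 ependymal genes. These lists are shorter than the 35 astrocyte genes, and a mean over fewer genes is less steady, which limits the comparison.

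**Figure D4:**
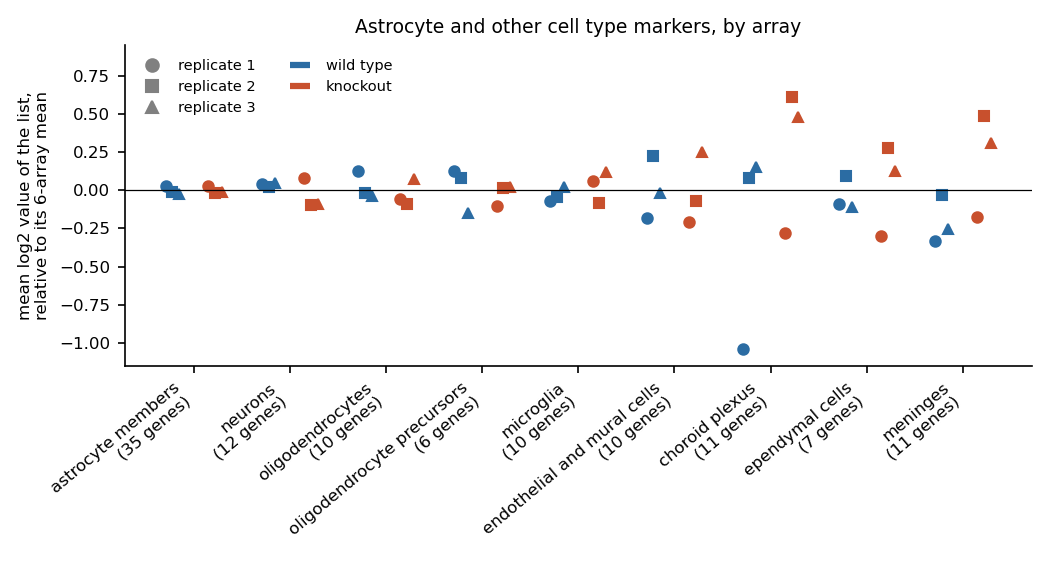
Mean log2 level of the astrocyte genes and of 8 lists of other cell types in each array, relative to the list's mean over the 6 arrays; symbols give the replicate and colours the genotype. The astrocyte points stay between -0.02 and 0.03, while the choroid plexus points span -1.04 to 0.61. The astrocyte list is the longest shown, which steadies its mean.

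Genes of astrocyte pathways outside the marker list were read from the same limma fit, and 0 of 72 passed (5 at an unadjusted p under 0.05, or 6.94% against 4.75% of all genes, lowest limma adjusted p = 0.884). Groups without overlap were seen for 9 of the 72 genes, against a background of 10.5% of all genes. Of all genes, 50.1% had a change above 0, the share beside which the counts of the lists stand. Among 9 measured genes of glutamate and potassium clearance, 3 had a change above 0 (median -0.04). Glul, the glutamine synthetase, had a change of -0.19 (SE 0.09) and Slc1a3, a glial glutamate transporter, one of 0.14 (SE 0.07). Of 13 genes of glycogen and lactate metabolism, 5 were above 0 (median -0.01), with glycogen synthase Gys1 at -0.71 (SE 0.26) and overlapping groups. Of 11 genes of cholesterol synthesis and export, 2 were above 0 (median -0.02), and Fdft1, the squalene synthase, had a change of -0.14 (SE 0.08).

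Genes known from reactive astrocytes had no call either. Of 7 measured genes shared by several kinds of injury, 4 were above 0 (median 0.09), with Cp, the copper oxidase ceruloplasmin, at 0.40 (SE 0.26) and the hyaluronan receptor Cd44 at 0.41 (SE 0.28). Of 9 genes linked to inflammatory reactive astrocytes, 7 were above 0 (median 0.30), among them the matrix protein Fbln5 at 0.48 (SE 0.21), without overlap, and Srgn at 0.32 (SE 0.15). The level of that list was -0.12, 0.02 and -0.20 in wild type and -0.05, 0.21 and 0.14 in knockout. The groups overlapped, and knockout replicates 2 and 3, its highest arrays, were also the highest in the meningeal level, whose part in the result was not tested. Of 7 genes linked to ischaemia, 2 were above 0 (median -0.05).

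Of 16 regulators of astrocyte genes in the Notch, STAT3, BMP and NFI pathways, 12 had a change above 0 (median 0.04). The share over all genes was 50.1%, and whether the list as a set differs from it was not tested. Lifr, the leukaemia inhibitory factor receptor that acts through STAT3, had the lowest p of the regulators. Its change was 0.51 (SE 0.10, limma adjusted p = 0.884), with no overlap. Nfix, a nuclear factor I protein, had a change of -0.15 (SE 0.07).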

How the data were processed

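Each of 6 hippocampus samples, 3 per genotype, was measured on 1 array. The deposited table holds a linear intensity per probe set. The sources used here do not name its software; the mean after leaving out 2% of values at each end was 2500 on every array, so the deposited table had been scaled. No detection calls were used, and the number of arrays limits the precision.

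Values were transformed as log2(intensity + 16), so changes of dim probe sets are understated. Controls (64) and the dimmest 40% by mean log2 value were left out. The remaining 26999 were fitted with limma 3.58.1 in R 4.3.3 (a model of genotype alone, eBayes with its trend option, two-sided p-values, Benjamini-Hochberg over all of them). The code was also run on simulated data with independent noise. Those data held no shifts shared by many genes of an array, so that run does not cover such shifts. Genes were named from the platform annotation, which gave 1 symbol for 34958 probe sets; promoters come from RefSeq, GRCm38.p6.

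The members, the 15 other gene lists, the tests and the alternatives were chosen with earlier results of these data known. The lists were described by counts and medians, with no set test. By the rule for named genes, array values were given for Gfap, Aqp4, the lowest p gene of each role and genes whose groups do not overlap; Agt was added after its values were seen, and so were array values of single further probe sets. From each other pathway list at most 2 genes of lowest p were named. Alternatives changed the pseudocount, the filter, the scaling or the variance trend, weighted or left out arrays, averaged a gene's probe sets, or added a replicate block or a choroid plexus covariate.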

Additional observations from a re-analysis of the deposited data

How the results depend on the processing

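No member probe set passed in any of the alternatives run. Single members stayed on the same side of the threshold in 630 of 630 comparisons; the sign of the change differed from the reported one in 38 of them, and in none for 19 genes, Gfap, Clu, Agt, Cbs, Hes5 and Fabp7 included. The lowest adjusted p of a member was 0.0614, for Fabp7 in limma with the choroid plexus level as a covariate, where its change was -0.97; over its alternatives the highest adjusted p was 0.999995. The median change of the members was -0.0135 with array weights, 0.0569 with the covariate, -0.0258 with the mean over a gene's probe sets and -0.0078 without replicate 1 of both groups. Leaving out 1 array it ran from -0.0384 (without knockout replicate 1) to 0.0372, and was -0.0245 without wild type replicate 3. Other scalings shifted the median change of all tested probe sets to -0.02 or -0.002, from 0.004.

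Over the whole table, 1 probe set was lower without an intensity trend, and 8 lower and 10 higher without replicate 1 of both groups. The count of higher ones was 1 with the covariate and 7 with the replicate block. Dropping a single array gave 0 to 3, the highest being that without knockout replicate 1. Leaving out 1 array gave 3 to 4 lower. Genes of the other lists that passed numbered 1 with the replicate block (the choroid plexus gene Kcnj13) and 2 without replicate 1 of both groups (Kcnj13 and the meningeal gene Igf2). The replicate number is not said to pair samples; deviations of same-numbered arrays correlated at 0.24, 0.05 and 0.10. The cause of these changes was not tested. The median SE was 0.10 over the member genes, 0.14 over all genes and 0.18 over all tested probe sets. Over the 9000 brightest probe sets it was 0.10, as for the members.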
